A study of Mus musculus with 37 samples.

Results

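Maoa and Maob encode the monoamine oxidases A and B, and their RNA was described here over 37 one-colour arrays of mouse primary astrocytes that carried a Cdca7l plasmid or an empty vector. Every probe set whose only annotated symbol was Maoa or Maob was taken, whatever its level. This gave 3 of the 45101 probe sets in the deposited table, which were 1428667_at and 1442676_at for Maoa and 1434354_at for Maob. All 3 exceeded the background level on 37 of 37 arrays and entered every test.

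Newborn 129S4/SvJae mice (129) and newborn C57BL/6J mice (B6) gave the astrocytes, with males and females kept apart. Per the labels, each culture was nucleofected with a pcDNA3.1-hygro plasmid that carried CDCA7L or with the same plasmid without it, so the controls share the vector, the electroporation and a medium rich in fetal bovine serum. Among 129 cultures, 4 from females and 5 from males had the Cdca7l plasmid and 4 and 5 the vector; among B6 cultures, 4 from females and 5 from males had the Cdca7l plasmid and 5 and 5 the vector. The design text calls the cultures independent isolates under stable transfection. Each array carries a clone label such as 2(3), and 15 labels occur under both plasmids of a strain and sex. The species of the insert and what the clone numbers stand for are not given in the sources used here. No genotype other than the strain is given for the mice.

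Monoamine oxidases are flavoenzymes of the outer mitochondrial membrane that break down amine transmitters and release an aldehyde, ammonia and hydrogen peroxide. The A form prefers serotonin and noradrenaline, the B form prefers phenylethylamine, and both accept dopamine. In brain the B form is known as an enzyme of astrocytes and serotonergic neurons. Cdca7l, also called R1 or RAM2, encodes a nuclear protein that binds MYC and has been reported to repress the human MAOA promoter through Sp1 sites, which are GC boxes. The comparison of the plasmids therefore bears on whether Maoa RNA differs where Cdca7l RNA is raised.

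Maoa and Maob are direct neighbours on the X chromosome in the RefSeq annotation of GRCm38.p6. The promoter table held an entry for Maoa and none for Maob. The 250 bases before the Maoa start (chrX:16619448-16619697, plus strand, RefSeq GRCm38.p6) are shown because the reported repression acts through GC boxes, and capitals mark the GC box found in them.
Maoa promoter: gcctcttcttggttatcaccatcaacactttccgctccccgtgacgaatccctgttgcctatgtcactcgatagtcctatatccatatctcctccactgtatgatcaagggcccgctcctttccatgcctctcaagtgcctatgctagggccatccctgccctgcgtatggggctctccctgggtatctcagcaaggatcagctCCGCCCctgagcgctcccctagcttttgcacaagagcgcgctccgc
The window was searched on both strands for the GC box GGGCGG and the TATA box TATAAA. It held 1 GC box, on the opposite strand and read here as CCGCCC, at 41 to 46 bases before the start, and 0 TATA boxes. Of 32851 such windows in the table, 32.7% held a GC box and 12.4% a TATA box, so the GC box is common among promoters. Its GC content was 56.8%, where the median of all windows was 52.4%. A match is a stretch of letters and not a measured binding site.

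The transfection was visible in the RNA of Cdca7l, which did not overlap between plasmids in any strain and sex. Over the 4 groups, Cdca7l was higher with its plasmid by 4.61 ± 0.484 (SE, log2; limma, adjusted p = 1.25e-06). The probe set 1421544_at, annotated to its neighbour Dnah11, a ciliary dynein heavy chain, was higher by 4.73 ± 0.461. Both were higher with the plasmid in 15 of 15 clone labels, with median differences of 4.14 for Cdca7l and 4.28 for 1421544_at. Which RNA 1421544_at reads here was not tested. The probe sets of Cdca7l and Dnah11 were the 2 called in the averaged comparison. The astrocyte markers Gfap, Slc1a3, Aqp4 and Gja1 exceeded the background level on all 37 arrays, with means of 12.83, 13.43, 13.60 and 13.99, while S100b did so on 13. Other cell types were marked unevenly. Of neuronal genes, Stmn2 (mean 13.42), Map2 (11.27) and Syn1 (8.93) exceeded it on 37 arrays and Gad1 on 34, but Rbfox3, Slc17a6 and Dcx on 0. Of microglial genes, Cd68 exceeded it on 37 arrays, Laptm5 on 22 with up to 12.08 and C1qb on 18, but Cx3cr1, P2ry12, Itgam and Trem2 on 0. Of endothelial genes, Flt1 exceeded it on 8 arrays, but Pecam1, Cdh5, Cldn5 and Vwf on 0. The upper quartile of 129 female vector 1(3) was 8.36 and that of the other 36 arrays at least 9.03. The sex genes of B6 female vector 5.1(1) went against its label, with a male level of Eif2s3y (11.91) and Xist of 2.40, while on the remaining 16 arrays of females Eif2s3y was at most 2.73 and Xist at least 10.71. Both arrays stayed in under their labels.

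Maoa was well expressed and steady by its brighter probe set, 1428667_at. Its mean over 37 arrays was 11.77 on the log2 scale, on which a step of 1 is a doubling, with an SD of 0.36 and a range from 11.12 to 12.62. That mean lay above the means of 83.8% of the tested probe sets, and 13.5% of them had a smaller spread within groups. The second Maoa probe set, 1442676_at, had a mean of 9.62 ± 0.869 (SD, n = 37) and ranged from 6.31 to 11.73. Maob had a mean of 8.30 ± 1.32 (SD, n = 37) and ranged from 5.46 to 10.38, and its spread within groups exceeded that of 82.1% of the tested probe sets. Levels of different probe sets depend on their probes and are not compared with each other. The 2 Maoa probe sets followed each other loosely, with r = 0.19 over the 37 arrays and 0.42 without 129 female vector 1(3). Both are therefore given, except that the genes most alike were sought for 1428667_at alone.

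No fall of Maoa was detected where Cdca7l was raised. By 1428667_at it lay at 11.54, 12.40, 11.63 and 12.18 in 129 females with Cdca7l and at 12.17, 12.38, 12.31 and 11.94 with vector. In 129 males the Cdca7l arrays had 11.35, 11.39, 11.74, 11.44 and 11.54 and the vector arrays 11.12, 11.67, 11.70, 11.27 and 11.20. Both comparisons overlap, with 2 of the 4 Cdca7l arrays of 129 females below all vector arrays and 1 above them all. In B6 females the values were 11.68, 11.66, 11.73 and 12.17 with Cdca7l and 12.62, 11.63, 11.89, 11.50 and 12.04 with vector. In B6 males they were 11.92, 11.77, 12.02, 11.91 and 11.60 with Cdca7l and 11.55, 11.54, 11.998, 12.03 and 11.27 with vector. No Cdca7l array of either B6 group lay outside the range of its vector arrays.

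**Figure D1:**
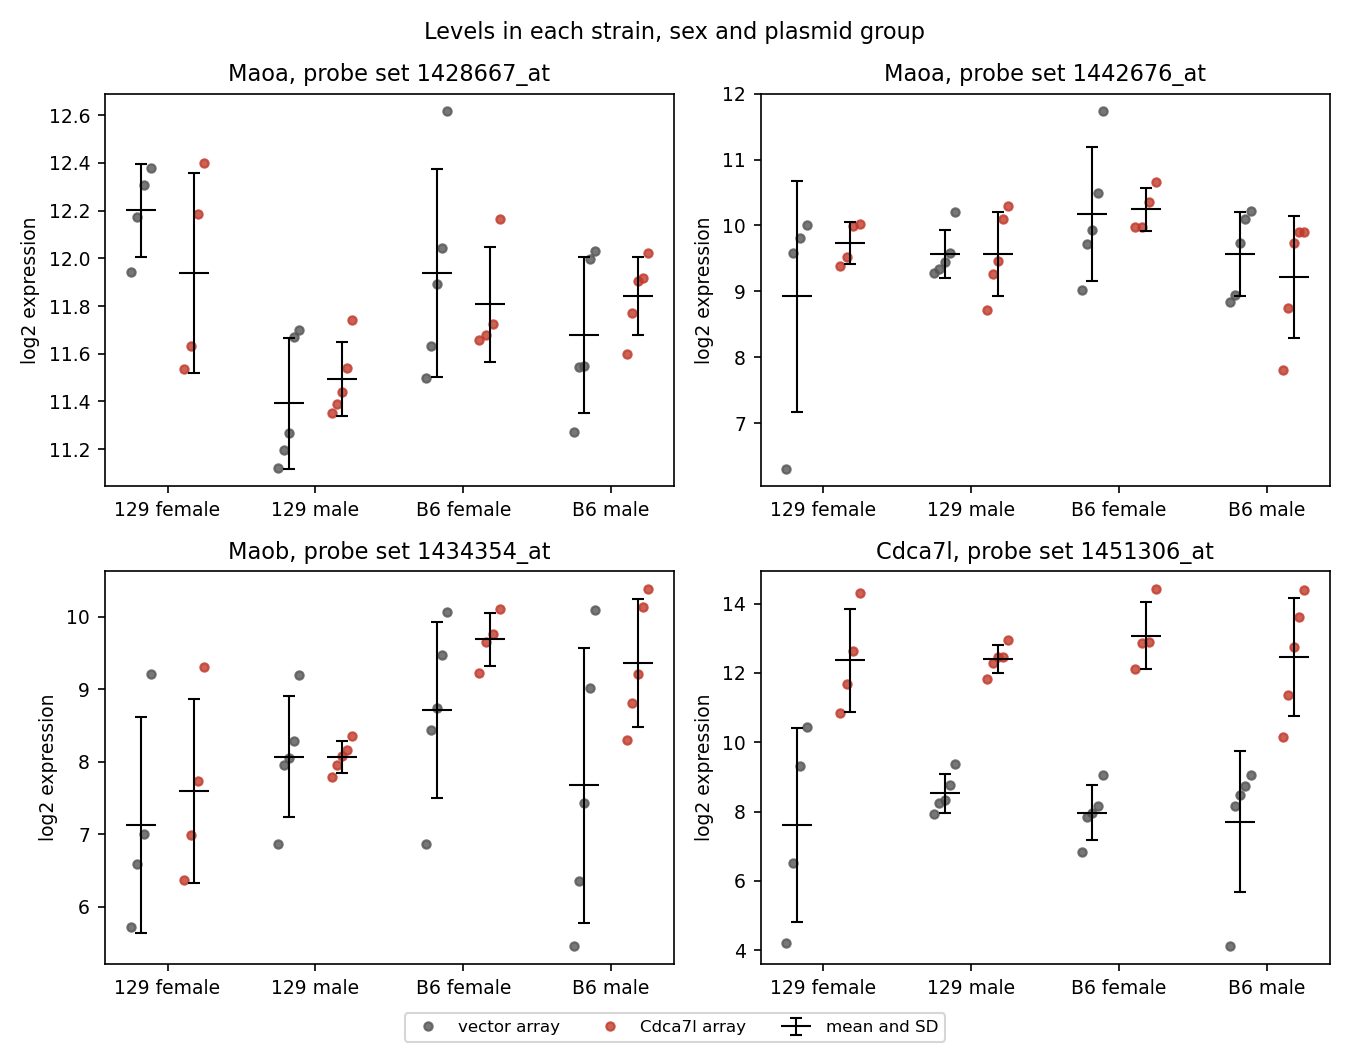
Log2 expression of the Maoa and Maob probe sets and of Cdca7l (vertical axes) in each strain and sex (horizontal axes); points are arrays, grey with vector and red with Cdca7l, and bars are the mean and SD of 4 or 5 arrays. The red and grey points overlap in all 4 groups for Maoa and Maob, while those of Cdca7l do not overlap in any.

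Averaged over the 4 strain and sex groups, Maoa 1428667_at differed by -0.032 ± 0.102 (SE, log2), a 95% interval of -0.24 to 0.18 (limma, adjusted p = 0.999). As a ratio of Cdca7l to vector the interval runs from 0.847 to 1.13. In that comparison 2 of 25579 probe sets were called, or 0.00782%, and 324 had an unadjusted p under 0.05. The difference was -0.26 in 129 females, 0.10 in 129 males, -0.13 in B6 females and 0.16 in B6 males. Exact permutation tests within these groups gave two-sided p-values of 0.343, 0.476, 0.659 and 0.365, where the smallest possible were 0.0286 in 129 females and 0.00794 elsewhere. Within each of the 4 groups limma called 0 of 25579 probe sets (0%), with 503, 422, 142 and 538 at an unadjusted p under 0.05. Cdca7l itself was among those not called, though it did not overlap between plasmids. Its limma adjusted p was 0.59 in 129 females, 0.157 in B6 females and 0.19 in B6 males. The 0 calls within groups thus cannot show that Maoa stayed unchanged.

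The second Maoa probe set showed no shared direction either. In 129 females 1442676_at lay at 9.39, 10.02, 9.52 and 9.99 with Cdca7l and at 6.31, 10.01, 9.58 and 9.81 with vector. The value of 6.31 belongs to vector 1(3), the array of low upper quartile, and the group difference of 0.80 became -0.067 without it. In 129 males it lay at 8.71, 9.47, 10.30, 9.26 and 10.10 with Cdca7l and at 9.28, 10.20, 9.33, 9.58 and 9.44 with vector. In B6 females the values were 10.65, 10.35, 9.98 and 9.98 with Cdca7l against 11.73, 10.49, 9.94, 9.01 and 9.72. In B6 males they were 8.75, 9.90, 9.74, 7.80 and 9.89 against 8.94, 10.09, 10.22, 9.74 and 8.84. The plasmid groups overlap in each of these cases. The B6 female difference of 0.063 became -0.23 without vector 5.1(1). The averaged difference was 0.13 ± 0.277 (SE; 95% interval -0.43 to 0.69; limma, adjusted p = 0.999) and turned to -0.16 without the 2 arrays named above.

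Maob, the form that astrocytes are known for, was higher on average with Cdca7l, but the difference did not pass over all probe sets. In B6 males it lay at 10.14, 9.21, 8.29, 8.81 and 10.38 with Cdca7l and at 6.36, 10.10, 9.02, 7.44 and 5.46 with vector. The vector arrays of B6 males were the widest group, with 3 of 5 below every Cdca7l array and 2 among them. In B6 females Maob lay at 9.77, 10.11, 9.65 and 9.23 with Cdca7l and at 8.44, 10.07, 9.47, 6.87 and 8.74 with vector, and the lowest of these is the array labelled vector 5.1(1). In 129 females it lay at 9.31, 6.99, 7.74 and 6.37 with Cdca7l and at 6.59, 7.01, 9.22 and 5.72 with vector. In 129 males the Cdca7l arrays sat close together, at 8.08, 7.95, 8.16, 8.36 and 7.78, inside the vector range of 6.87 to 9.20. Maob thus overlapped between plasmids in every strain and sex.

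Averaged over the groups, Maob was higher with Cdca7l by 0.78 ± 0.369 (SE, log2), a ratio of 1.72 with a 95% interval of 0.027 to 1.53 on the log2 scale (limma, adjusted p = 0.999). Its limma p had rank 240 of 25579. A permutation test that moved labels within strain and sex gave p = 0.0483. Without the 2 arrays that stand apart the difference was 0.62 (limma, adjusted p = 0.934). In the same comparison the ependymal and choroid plexus markers were above 0 in 7 of 8 tested genes (median 0.51), and the microglia markers below 0 in 7 of 8 (median -0.93). In B6 females the ependymal markers were above 0 in 8 of 8 (median 1.08). In B6 males, where Maob differed most, they were above 0 in 4 of 8 (median 0.12) and the microglia markers in 8 of 8 (median 0.42). None of these passed in limma, and the median over all genes was 0.015 for the averaged difference. The part of these cells in the Maob difference was not tested. The mean level of the ependymal list ran from 4.83 to 8.84 in B6 female vector arrays and from 6.43 to 9.17 with Cdca7l, and in B6 males from 5.06 to 10.11 and from 5.64 to 9.72. Within groups the Maob difference was 0.47 in 129 females, -0.0053 in 129 males, 0.97 in B6 females and 1.69 ± 0.707 in B6 males. Exact permutation tests, which did not use the clone labels, gave p-values of 0.657, 0.984, 0.159 and 0.119. The B6 male value fell to 1.14 without vector 5.6(1), and the B6 female value to 0.51 without vector 5.1(1), the array whose sex genes go against its label. The effect in B6 exceeded that in 129 by 1.10 ± 0.739 (limma, adjusted p = 1), and that in males exceeded that in females by 0.12 ± 0.739. In these 2 comparisons limma called 0 of 25579 probe sets (0%), with 429 and 184 at an unadjusted p under 0.05.

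**Figure D2:**
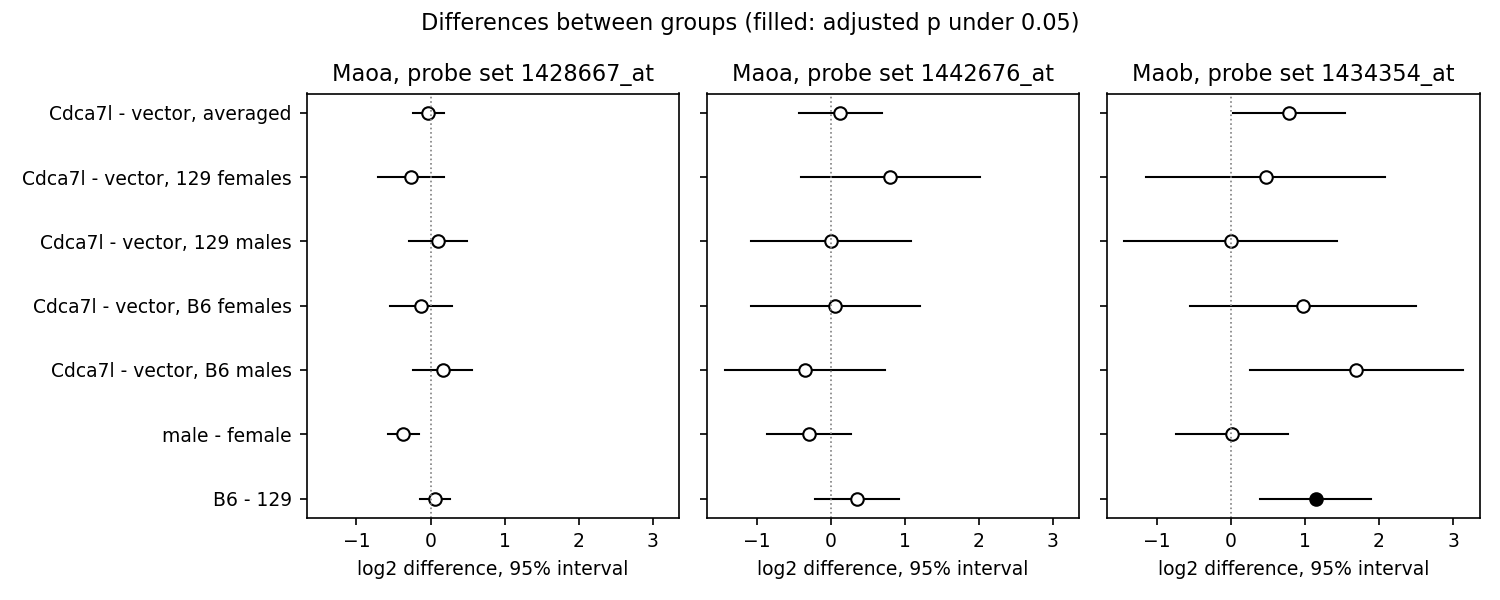
Log2 differences (horizontal axes) of each probe set in 7 comparisons (rows), with 95% intervals as lines and filled points where the limma adjusted p is under 0.05. The single filled point is Maob in B6 minus 129, at 1.14; all Cdca7l intervals of Maoa span 0.

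The array-by-array relation to Cdca7l was taken within each plasmid, since the plasmids form separate clusters of Cdca7l level. Among the 19 vector arrays Cdca7l ran from 4.12 to 10.43. Over these, Maoa 1428667_at gave r = -0.33 (permutation p = 0.163) and rho = -0.22 (p = 0.358), Maoa 1442676_at r = 0.33 (permutation p = 0.175) and rho = 0.18 (p = 0.463), and Maob r = -0.13 (permutation p = 0.594) and rho = -0.11 (p = 0.642). The relation of 1442676_at rests on B6 male vector 3(5) and 129 female vector 1(3), the arrays of lowest Cdca7l, since r was -0.15 without them. For 1428667_at and Maob r was -0.23 and -0.30 without these arrays. A falling Maoa with rising Cdca7l was therefore not detectable among controls.

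Among the 18 Cdca7l arrays, Cdca7l ran from 10.15 to 14.42. Over these, Maoa 1428667_at gave r = -0.15 (permutation p = 0.556) and rho = -0.092 (p = 0.721), and Maob r = 0.070 (permutation p = 0.784) and rho = 0.046 (p = 0.858). Maoa 1442676_at gave r = 0.48 (permutation p = 0.0458, adjusted p = 0.238 over 26 p-values of 13 relations) and rho = 0.29 (p = 0.239). That value rests on B6 male Cdca7l 5.6(1) and B6 female Cdca7l 4(5), with r = 0.18 without them. More Cdca7l RNA among transfected cultures thus went with no lower Maoa level that these arrays could resolve.

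**Figure D3:**
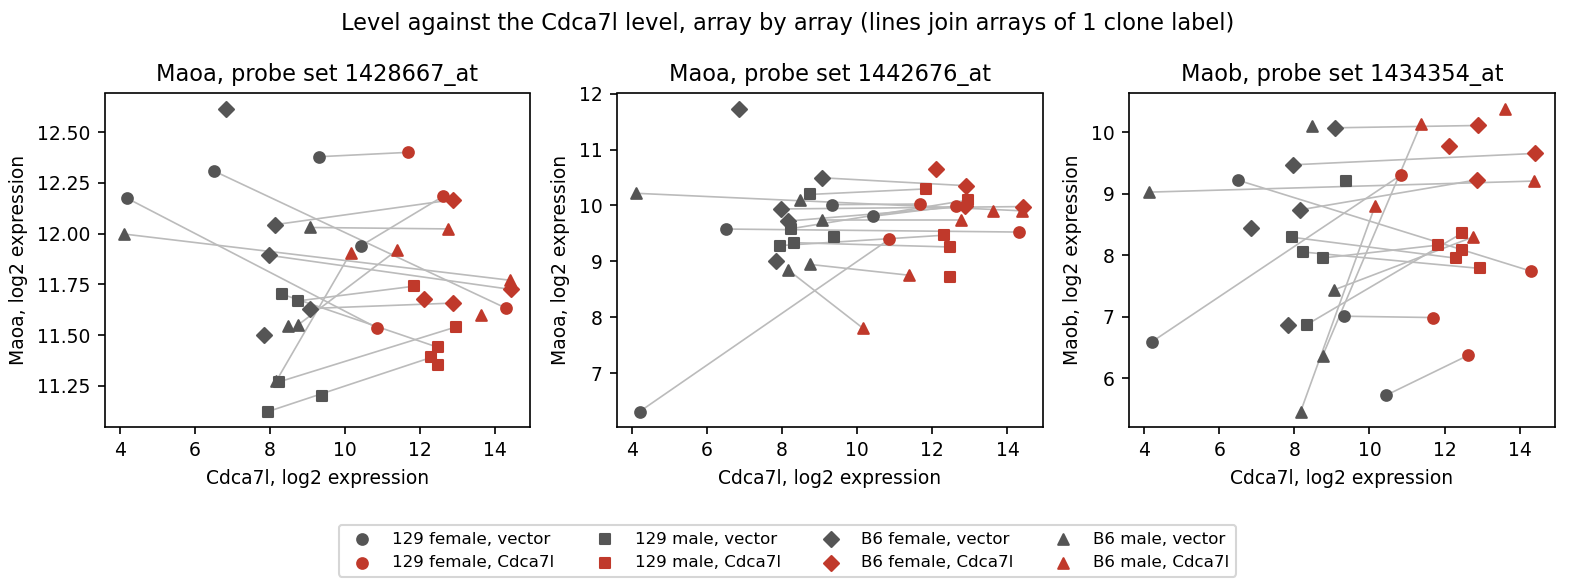
Log2 expression of each Maoa and Maob probe set (vertical axes) against that of Cdca7l (horizontal axes) for 37 arrays; marker shapes are strain and sex, grey is vector and red is Cdca7l, and lines join arrays of the same clone label. The lines run left to right across the Cdca7l gap and go up as well as down in each panel.

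Between arrays of the same clone label, the sign of the Maoa difference was mixed, and its size was set against that of Cdca7l. Of the 15 labels, Maoa 1428667_at was higher with Cdca7l in 9 and lower in 6, with a median difference of 0.027. The largest fall, by 0.68, was in 129 female 2(3), and the largest rise, 0.63, in B6 male 5.6(1), where Cdca7l differed by 7.79 and 1.99. Over the 15 labels the Maoa difference and the Cdca7l difference gave r = -0.70 (permutation p = 0.00371, adjusted p = 0.0965 over the 26 p-values) and rho = -0.63 (p = 0.0131, adjusted p = 0.114). Labels with a wide Cdca7l gap thus tended to have a lower Maoa with Cdca7l, though the relation did not pass the adjustment. A gap also depends on the vector array. It ran from 4.12 with vector to 14.39 with Cdca7l in B6 male 3(5), and from 4.20 to 10.85 in 129 female 1(3). The vector arrays of these labels had the lowest upper quartiles of all arrays, 9.03 and 8.36. The part of this in the relation was not tested. The 15 labels include 8 of 129, which were not taken as pairs. Among these, the 2 arrays of 129 female 2(3), the label of the largest fall, deviated together at a correlation of only 0.061. Without B6 male 3(5) and 129 female 2(3), the labels farthest from the median, r was -0.70 (permutation p = 0.00654). With differences centred on strain and sex it was -0.79 (permutation p = 0.012, adjusted p = 0.153 over 26 p-values). With single labels left out r ran from -0.80 to -0.64, and its adjusted p from 0.0174, without B6 male 3(5), to 0.227.

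The relation was then taken by strain, a choice made after its value was seen. In B6, where same-labelled arrays deviated together over all probe sets, r was -0.81 over 7 labels (exact permutation p = 0.00238) and rho -0.86 (exact p = 0.0238), and r was -0.84 without B6 male 3(5) and B6 female 4(5). In 129, r was -0.78 over 8 labels (exact permutation p = 0.039) and rho -0.38 (exact p = 0.36), and r was 0.028 without 129 female 2(3) and 1(3). The 129 value thus rests on 2 labels, while that of B6 does not. These p-values are unadjusted and belong to 6 relations by strain. The second Maoa probe set did not share the pattern, with r = 0.25 over 15 labels (permutation p = 0.337), rho = 0.24 (p = 0.391), and r = 0.66 without B6 male 3(5) and 129 female 2(3) (permutation p = 0.00434), opposite in sign to 1428667_at. Over the 7 B6 labels its r was 0.26 (exact permutation p = 0.586), and 0.89 without B6 male 3(5) and B6 female 4(5). Over the 8 labels of 129 its r was 0.43 (exact permutation p = 0.393).

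Maob was higher with Cdca7l in 11 of 15 labels, with a median difference of 0.21 and a range from -1.48 to 3.78. It was higher in 4 of 4 labels of B6 males, by 0.18 to 3.78, and in 3 of 3 of B6 females, by 0.038 to 0.49, but in 2 of 4 each of 129 females and 129 males. The widest Maob rises, 3.78 in B6 male 2(2) and 3.35 in B6 male 5.6(1), fell on labels with narrow Cdca7l gaps. Against the Cdca7l difference Maob gave r = -0.36 over the 15 labels (permutation p = 0.184), rho = -0.40 (p = 0.139) and r = -0.18 without B6 male 3(5) and 129 female 2(3). Over the 7 B6 labels r was -0.64 (exact permutation p = 0.0262, unadjusted) and rho -0.75 (exact p = 0.0663), and over the 8 labels of 129 r was -0.060 (exact permutation p = 0.915) and rho -0.31 (exact p = 0.462). The difference between the strains was not tested.

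**Figure D4:**
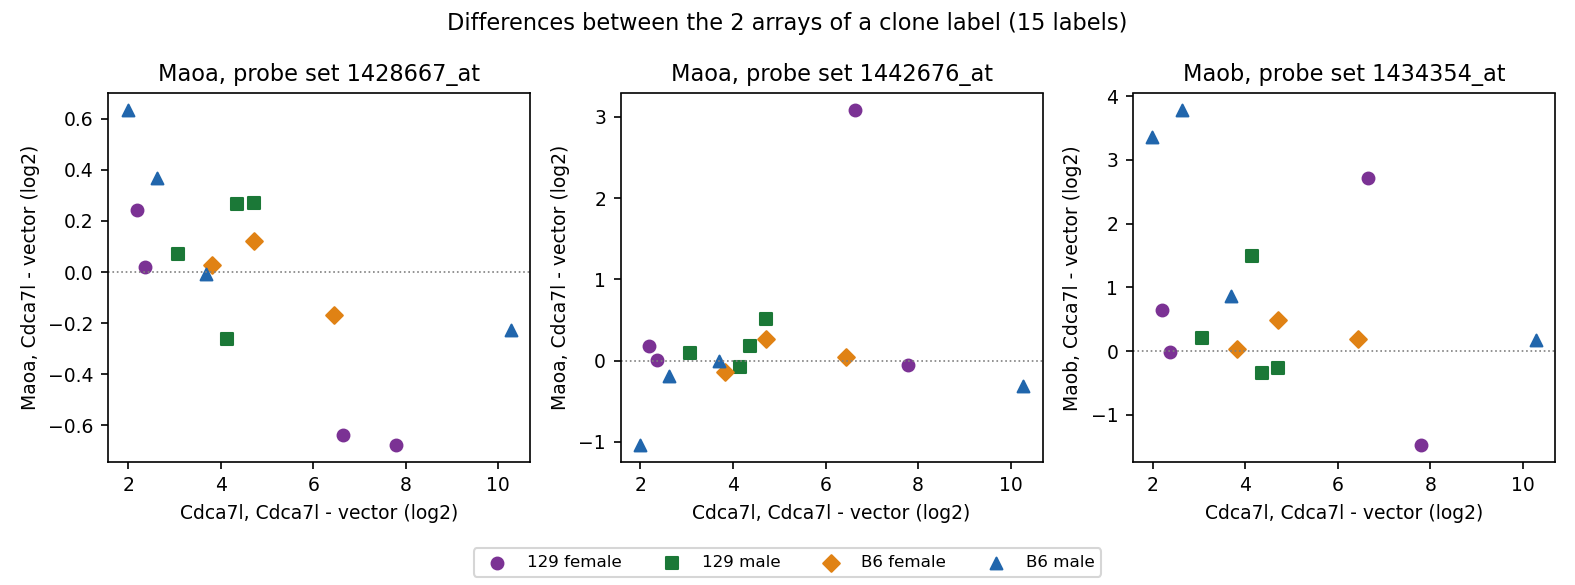
Difference between the Cdca7l and the vector array of a clone label in Maoa or Maob (vertical axes, log2) against that in Cdca7l (horizontal axes, log2) for 15 labels, with shapes and colours for strain and sex. The 8 labels of 129 among them were not taken as pairs. In the panel of 1428667_at the points tend to fall, from 0.63 at a Cdca7l difference of 1.99 to -0.68 at 7.79. The point of widest Cdca7l difference, 10.28, lies at -0.23. The other panels show no such slope over all labels.

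By sex, Maoa 1428667_at was lower in males, but the difference did not pass over all probe sets. Over both strains and plasmids its level in the 17 female arrays ran from 11.50 over a median of 11.94 to 12.62, and in the 20 male arrays from 11.12 over 11.57 to 12.03. The lowest of the female arrays is B6 female vector 5.1(1), with the male pattern of sex genes, and the other 16 ran from 11.54 over 11.99 to 12.62. Male minus female was -0.37 ± 0.102 (SE), a ratio of 0.774 (limma, adjusted p = 0.0925), with 82 of 25579 probe sets called, or 0.321% (0.27% higher and 0.0508% lower in males). The vector arrays of 129 mice ran from 11.94 to 12.38 in females and from 11.12 to 11.70 in males. Their Cdca7l arrays ran from 11.54 to 12.40 and from 11.35 to 11.74, so there the sexes overlapped. The share of all probe sets that keeps the sexes apart in such a subset was not counted. The difference was -0.63 over the 129 arrays alone (adjusted p = 0.0265) and -0.11 over the B6 arrays alone (adjusted p = 0.966), or -0.17 without vector 5.1(1) (adjusted p = 0.79). The test of that contrast between strains gave 0.52 ± 0.204 (limma, adjusted p = 0.238), with 0 of 25579 probe sets called (0%) and 3917 at an unadjusted p under 0.05. Without vector 5.1(1) it was 0.46 ± 0.201 (limma, adjusted p = 0.275). These strain-wise values were computed after the averaged one was seen. How many of all probe sets were called over the 129 or the B6 arrays alone was not recorded. The fit counted arrays of the same clone label as independent. Their correlation was 0.41 over all tested probe sets, so the p-values for sex can be too small. Without B6 female vector 5.1(1) the averaged difference was -0.40 ± 0.1005 (limma, adjusted p = 0.0573), with 127 probe sets called, and 260 were called without this array and 129 female vector 1(3). Without 129 female Cdca7l 1(3) alone the averaged difference was -0.40 and passed at an adjusted p of 0.0285. In that setting 947 probe sets were called for sex, against 82 with all arrays.

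Neither of the other 2 probe sets passed for sex. Male minus female was -0.29 ± 0.277 for Maoa 1442676_at (limma, adjusted p = 0.588) and 0.010 ± 0.369 for Maob (limma, adjusted p = 0.991). For Maob the sign differed by strain, at 0.70 over the 129 arrays and -0.68 over the B6 arrays, and neither passed. Without B6 female vector 5.1(1) Maob was -0.11 for both strains (limma, adjusted p = 0.893) and -0.91 over B6 (adjusted p = 0.723), and Maoa 1442676_at -0.36 (adjusted p = 0.456). All 3 probe sets lie in genes of the X chromosome, of which males carry a single copy, and the part of copy number in these values was not tested.

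By strain, Maob was higher in B6 than in 129. Over both sexes and plasmids it ran from 5.72 over a median of 7.95 to 9.31 on the 18 arrays of 129 and from 5.46 over 9.21 to 10.38 on the 19 arrays of B6. The strains overlapped, with 11 of 19 B6 arrays above a level of 9 and 3 of 18 arrays of 129 above it. B6 minus 129 was 1.14 ± 0.369 (SE), a ratio of 2.21 with a 95% interval of 1.31 to 3.72 (limma, adjusted p = 0.023). Strain differences were common, as 6456 of 25579 probe sets were called, or 25.2%, and 14.6% were called higher in B6. The difference was 1.69 on the Cdca7l arrays alone (adjusted p = 0.00932) and 0.59 on the vector arrays alone (adjusted p = 0.564), where it no longer passed. It was 1.84 over females (adjusted p = 0.0508), or 2.07 without B6 female vector 5.1(1) (adjusted p = 0.0266), and 0.45 over males (adjusted p = 0.577). The number of all probe sets called over females or males alone was not recorded. Over all arrays the Maob difference was 1.14 with an adjusted p of 0.0729 where clone labels entered as random replicate blocks, and no longer passed.

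Maoa did not pass for strain, at 0.061 ± 0.102 for 1428667_at (limma, adjusted p = 0.693) and 0.35 ± 0.277 for 1442676_at (limma, adjusted p = 0.355). In the order of the 8 group means, every step between neighbours was smaller than the larger SD of the 2 groups, and their ranges overlapped, for all 3 probe sets. The means of 1428667_at ran from 11.39 in 129 male vector to 12.20 in 129 female vector. Those of 1442676_at ran from 8.93 in 129 female vector to 10.24 in B6 female Cdca7l. Those of Maob ran from 7.13 in 129 female vector to 9.69 in B6 female Cdca7l, a span of 2.56, with both Cdca7l groups of B6 at the top.

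Markers of cell types moved with strain as well, and their part in the Maob difference was not tested. Of all genes tested 26.9% were called, with a median difference of 0.023. Of 13 astrocyte markers 7 were called higher in B6 and 0 lower, with a median difference of 0.77, among them Aqp4 at 0.93 and Sox9 at 0.77. Of 8 ependymal and choroid plexus markers 3 were higher, among them Foxj1 at 2.03, with a median of 1.40. Of 10 fibroblast markers 4 were lower, among them Col1a1 at -3.02, and Islr was higher. The other lists had 3 higher and 1 lower of 6 neuronal markers, 2 higher of 5 pericyte and 2 higher of 5 oligodendrocyte lineage markers, 1 lower of 3 endothelial and 0 of 8 microglia markers, the last with 8 of 8 below 0 and a median of -0.87. The mean level of the astrocyte list ran from 8.88 to 12.52 on the 129 arrays and from 10.88 to 12.64 on the B6 arrays, that of the ependymal list from 2.93 to 8.69 and from 4.83 to 10.11, and that of the fibroblast list from 6.32 to 11.90 and from 6.14 to 7.35. In RNA from whole cultures, fewer cells of a type and less RNA per cell cannot be told apart. Over the 37 arrays Maob correlated with the ependymal list at r = 0.69, the astrocyte list at 0.53 and the pericyte list at 0.52. Maoa 1428667_at had -0.56, -0.47 and -0.15, but Maoa 1442676_at had 0.0065, -0.20 and 0.41, so the 2 Maoa probe sets differ here. These are descriptions over arrays that share groups.

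No relation between Maoa and Maob levels passed adjustment. Among vector arrays Maob and Maoa 1428667_at gave r = 0.028 (permutation p = 0.91) and rho = 0.018 (p = 0.945), and among Cdca7l arrays r = -0.26 (permutation p = 0.303) and rho = -0.073 (p = 0.774). The r of -0.26 turned to 0.30 without 129 female Cdca7l 2(1) and 4(1), and was -0.70 with levels centred on strain and sex (permutation p = 0.0117, adjusted p = 0.153 over 26 p-values). With 1442676_at Maob gave r = 0.47 among vector arrays (permutation p = 0.0335, adjusted p = 0.218) and rho = 0.58 (p = 0.0113, adjusted p = 0.114), with r = 0.61 without 129 female vector 1(3) and B6 female vector 2.1(1). Among Cdca7l arrays that value was r = 0.015 (permutation p = 0.954) and rho = -0.022 (p = 0.934), with r = -0.028 without B6 male Cdca7l 5.6(1) and 129 male Cdca7l 1(4).

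The genes most like Maoa 1428667_at over the 37 arrays, out of 12119 genes with 1 probe set each, were Chchd4 (r = 0.78), Atp5md (0.77), Cisd1 (0.76), Atox1 (0.75) and Taldo1 (0.75). Chchd4 encodes an import factor of the mitochondrial intermembrane space, Atp5md a subunit of ATP synthase, Cisd1 an iron-sulfur protein of the outer mitochondrial membrane, Atox1 a copper chaperone and Taldo1 transaldolase. The genes most like Maob were Pygl (r = 0.89), Psmb9 (0.87), Cebpd (0.86), Casp4 (0.86) and Shisa3 (0.86). Pygl encodes a glycogen phosphorylase, Psmb9 an immunoproteasome subunit, Cebpd a transcription factor of the acute-phase response and Casp4 an inflammatory caspase. After centring on the 8 group means the values stayed at 0.67 to 0.80 for Maoa and 0.81 to 0.85 for Maob. The arrays share their groups and normalization, so these are descriptions.

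The other genes of monoamine handling were taken from 5 lists, which hold 76 genes, of which 60 had a probe set and 33 were tested. None of the 33 passed in limma for the averaged Cdca7l difference, where 1 had an unadjusted p under 0.05, nor for male minus female, where 5 did, and 0.0165% and 0.297% of all genes passed. In B6 minus 129, 8 passed higher and 2 lower, or 30.3%, beside 26.9% of all genes tested, with a median of 0.083 against 0.023 over all genes. The lists thus moved with strain at about the rate of other genes.

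Among 7 tested genes of synthesis, Pts at 0.94 (limma adjusted p = 2.3e-05) and Pcbd1 at 0.69, both of the tetrahydrobiopterin cofactor, were higher in B6, and the neuronal tryptophan hydroxylase Tph2, at a mean level of 3.43 near background, was lower by -1.11. Of 4 transporters none was called for strain; Slc18a1 differed by 0.13 and had -0.35 ± 0.174 for the averaged Cdca7l difference (limma, adjusted p = 0.999). Among 6 other genes of breakdown 3 were higher in B6, namely the histamine methyltransferase Hnmt at 1.55 ± 0.348 (limma adjusted p = 0.00165) and the aldehyde dehydrogenases Aldh1a1 at 0.70 and Aldh3a2 at 0.38, enzymes that can oxidise the aldehydes monoamine oxidases release. Hnmt also had the smallest Cdca7l p of that group, at 0.51 ± 0.348 (limma, adjusted p = 0.999).

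Of 4 tested receptors, the serotonin receptor Htr1b was lower in B6, at -1.52 ± 0.346 (limma adjusted p = 0.00188), from a mean level of 3.24 close to background. Of 12 tested factors reported at monoamine oxidase promoters 3 were higher in B6, namely Klf11 at 1.25 ± 0.203 (limma adjusted p = 3.7e-05), Sp1 at 0.40 and the early response factor Egr1 at 0.94. Klf11 and Sp1 are GC box binding proteins. The smallest p of that list for the averaged Cdca7l difference belonged to Creb1, a cAMP response factor, at 0.40 ± 0.158 (limma, adjusted p = 0.999).

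**Figure D5:**
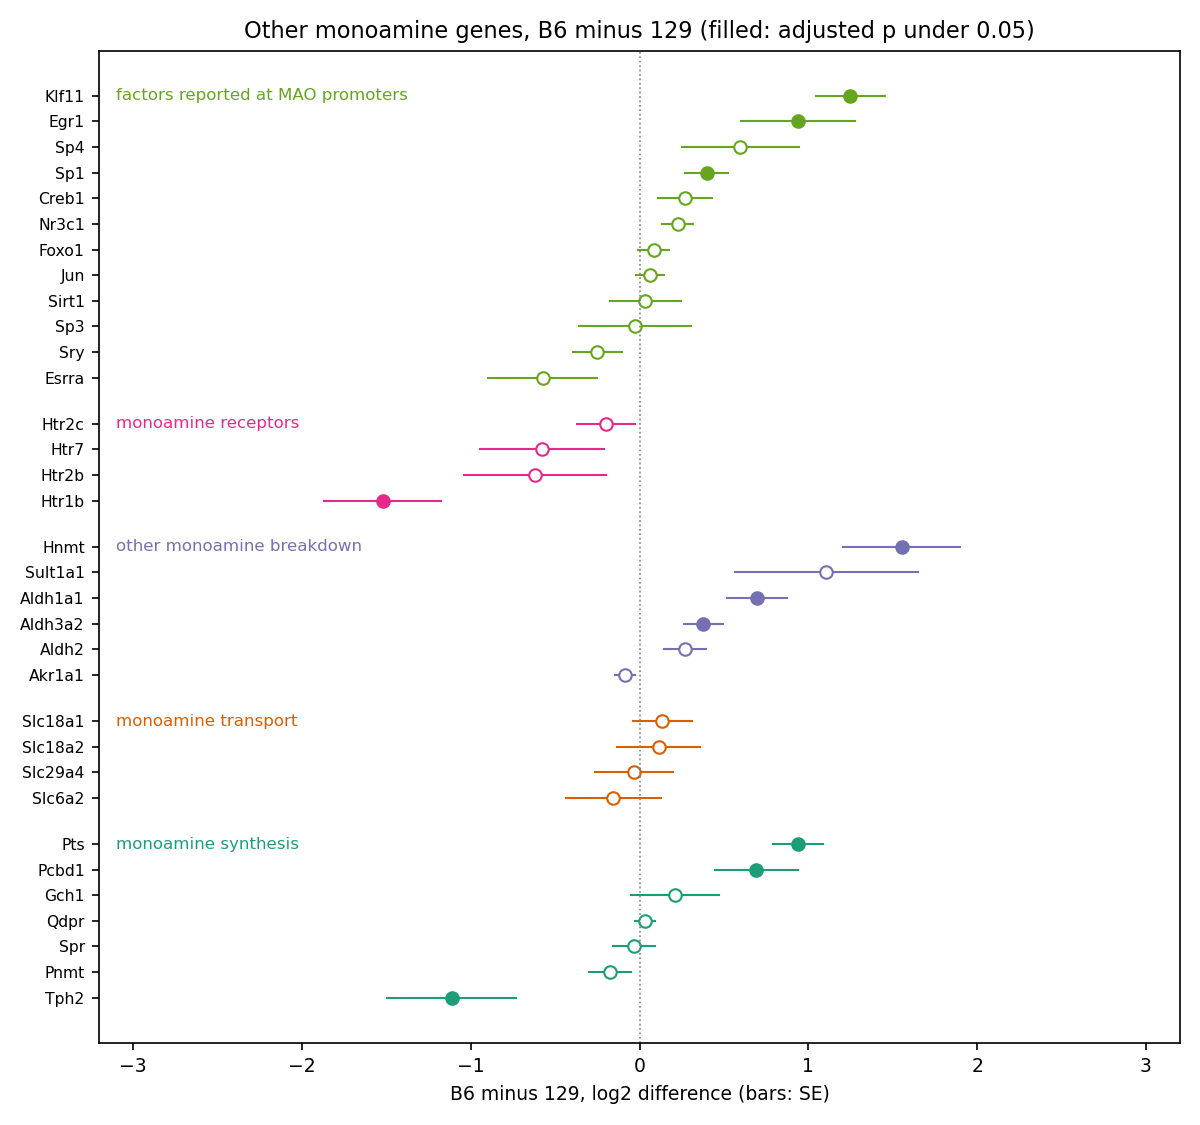
B6 minus 129 log2 differences (horizontal axis; bars are SE) of the 33 tested genes of 5 lists on monoamine handling (rows, coloured by list), with filled points where the limma adjusted p is under 0.05. Filled points lie to the right for 8 genes, with Hnmt farthest at 1.55, and to the left for Tph2 and Htr1b.

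Of the 4 annotated protein-coding genes on either side of the Maoa and Maob locus, 2 were tested, both beyond Maob. Ndp, which encodes norrin, had an averaged Cdca7l difference of 0.65 ± 0.534 and a strain difference of 0.96 ± 0.534 (limma, adjusted p = 0.187). Fundc1, a mitophagy receptor of the outer mitochondrial membrane, had 0.20 ± 0.144 and 0.29 ± 0.144 (limma, adjusted p = 0.129 for strain). Neither passed. Both were above 0 in these comparisons, as Maob was, but so were 54.4% of all genes tested for Cdca7l and 52.6% for strain.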

How the data were processed

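RNA of 37 astrocyte cultures in 8 groups was measured on one-colour arrays. The deposited values are on a log2 scale. GCRMA and Partek 6.5 are the tools that the submitters' processing notes name for the authors' work; joint normalization of all arrays is not stated there. They were used as deposited. Precision is limited by the number of arrays, since intensities carry no depth. Symbols came from the platform annotation, updated by Entrez ID: 34958 probe sets had 1 symbol, 932 several and 9211 none. A probe set was tested where it exceeded the table's median, 3.19 (the background level), on at least 4 arrays; 19458 did not pass, 64 controls were left out, and 25579 were tested.

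All arrays entered 1 model in limma 3.58.1 (R 4.3.3) with 8 group means, 29 residual degrees of freedom and default empirical Bayes moderation. Calls needed a Benjamini-Hochberg adjusted p under 0.05 over all probe sets tested. Single values used exact or 100000-resample permutation tests, two-sided. Gene lists were read by the probe set of highest mean. From each list, up to 4 called genes of smallest p, or else genes of smallest p for the averaged Cdca7l difference, were named, and the 5 genes of highest r with each enzyme. Dnah11 and the marker genes are named as checks. The fit was tested on simulated data.

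The members and lists were chosen with earlier results of these data known. The alternatives covered the filter, variance prior, normalization, array weights, clone label blocks, array subsets and each array left out. Deviations of same-labelled arrays from group means correlated at 0.43 to 0.77 in B6 females and 0.38 to 0.57 in B6 males. By the rule that every pair exceed 0.1, the labels of B6 could be read as pairs. In 129, 6 of 8 labels correlated at 0.416 to 0.716 but 2 at 0.061 and -0.089, so its labels were not taken as pairs. The main limma fit and the permutation tests between plasmids did not use the labels in either strain, so their p-values are unpaired. No 2 arrays shared more than 153 identical values.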

Additional observations from a re-analysis of the deposited data

Results flagged for a closer look

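In 3 of 32 combinations of a group and a probe set, a single array lay far from the others by Dixon's test, which chance gives in about 1 of 20 groups. Maoa 1428667_at was 12.17 in B6 female Cdca7l 6(3), where the other 3 arrays of the group lay between 11.66 and 11.73. Maoa 1442676_at was 6.31 in 129 female vector 1(3), where the others lay between 9.58 and 10.01; this is the array of low upper quartile, whose part in the value was not tested. Cdca7l was 4.12 in B6 male vector 3(5), where the others lay between 8.17 and 9.06. That array has the widest Cdca7l difference of the 15 clone labels, 10.28, and its Maoa 1428667_at of 11.998 lay inside the range of its group.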

How the results depend on the processing

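Of 297 values of the Maoa and Maob probe sets under settings other than leaving out 1 array, 263 kept their direction and side of the threshold, as did 623 of 666 with 1 array left out; most that changed sign lay near 0, and the cause was not tested. The Maob strain difference kept its sign throughout, passing with each array left out (0.99 to 1.32, adjusted p 0.00666 to 0.0462). It no longer passed with a random replicate block (1.14), on vector arrays (0.59), on female arrays (1.84; 2.07 without B6 female vector 5.1(1), where it passed) or on male arrays (0.45). The strain and sex subsets and the Cdca7l arrays alone were chosen after seeing the data.

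Limma's array weights, fitted gene by gene because the likelihood fit did not converge, ran from 0.105 to 7.92, so few arrays carry those results. With them the number of probe sets called rose to 109, 1589, 51 and 217 within 129 females, 129 males, B6 females and B6 males, to 11621 for sex and 14556 for strain, and to 2 and 267 for the differences of the Cdca7l effect by sex and by strain. Maob in B6 males passed at 2.92, and for sex Maoa passed at -0.52 (1428667_at) and -0.73 (1442676_at). Signs turned for Maoa 1428667_at on average (0.057) and by strain (-0.15), for Maoa 1442676_at in B6 males (0.30) and in the strain difference of the effect (0.40), and for Maob in 129 females (-0.010) and by sex (-0.18).

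With a random replicate block the calls were 1, 1 and 4 within 129 females, B6 females and B6 males, 19 for sex and 4249 for strain, and in 129 males Maoa 1442676_at was 0.063 and Maob 0.094. With a fixed replicate block the averaged comparison had 1 call and Maoa 1428667_at 0.00247, and in 129 males Maoa 1442676_at was 0.18 and Maob 0.27; no other call of the 3 probe sets changed under a block. A fixed block could not be fitted for sex and strain, since each label lies in 1 strain and sex. With 1 probe set per gene, which tests fewer features, calls were 1 in B6 females, 34 for sex and 3417 for strain, and with the compared groups alone 2 in 129 males. Quantile normalization gave 0.033 and 0.017 for Maoa 1442676_at and Maob in 129 males and -0.14 for Maob by sex.

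On vector arrays alone 20 probe sets were called for sex and 2327 for strain, with Maoa 1442676_at at 0.014 and Maob at -0.051 for sex, and on Cdca7l arrays alone 12 and 1374. On 129 arrays the sex difference of Maoa 1428667_at passed at -0.63 and that of 1442676_at was 0.24, and on B6 arrays that of Maob was -0.68, or -0.91 without B6 female vector 5.1(1). For strain, Maoa 1428667_at was -0.20 on female arrays (-0.14 without that array) and 1442676_at -0.17 on male arrays. Without the 2 arrays that stand apart 1, 1 and 1 probe sets were called in 129 males, B6 females and B6 males and 260 for sex; Maoa 1442676_at was -0.16 on average, -0.067 in 129 females and -0.23 in B6 females, and Maob -0.15 by sex.

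With 1 array left out in turn, calls ran from 0 to 1 in 129 females, 129 males and B6 females, from 0 to 3 in B6 males and from 35 (without 129 female Cdca7l 4(1)) to 947 (without 129 female Cdca7l 1(3)) for sex. Maoa 1428667_at ran from -0.070 to 0.011 on average, -0.25 to 0.040 in B6 females and -0.40 to -0.33 for sex. Maoa 1442676_at ran from -0.089 to 0.23 on average, -0.067 to 1.17 in 129 females, -0.18 to 0.21 in 129 males, -0.23 to 0.45 in B6 females and -0.53 to 0.00499 in B6 males. Maob ran from -0.10 to 1.16 in 129 females, -0.31 to 0.28 in 129 males, 0.51 to 1.31 in B6 females, -0.14 to 0.18 for sex and -0.22 to 0.43 for the sex difference of the effect.

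Correlations kept their sign in 45 of 52 other settings. Centring on strain and sex gave -0.11 for Maob against Cdca7l and -0.089 for Maob against Maoa 1442676_at among Cdca7l arrays. Without the 2 extreme arrays, Maoa 1442676_at against Cdca7l was -0.15 among vector arrays, and among Cdca7l arrays Maob was 0.30 against 1428667_at and -0.028 against 1442676_at, the latter -0.00993 after quantile normalization. Without the 2 arrays that stand apart, Maoa 1442676_at against Cdca7l was -0.25 among vector arrays. With 1 array left out this ran from -0.22 to 0.51; Maob against Cdca7l ran from -0.33 to 0.011 among vector and -0.018 to 0.17 among Cdca7l arrays, and Maob against Maoa from -0.11 to 0.11 (1428667_at, vector) and -0.080 to 0.13 (1442676_at, Cdca7l). The Maoa 1428667_at clone label relation ran from -0.80, where it passed, to -0.64.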
